A study of Homo sapiens with 18 samples.

Results

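The proteasome subunit genes are the rows of the deposited expression table whose symbols start with PSM, then a letter from A to G, then a digit. This name pattern, which uses no measured value, gave 51 of the 23713 rows. Of these, 48 code for subunits, activators, an inhibitor or assembly chaperones of the proteasome, and 46 of the 48 reached 1 FPKM in at least 1 group and are called kept below. The cells were MOLM-13, an established line from a human acute monocytic leukaemia, kept in RPMI medium with serum. They had received DMSO as solvent control, the bromodomain inhibitor IACS-9571, or dTRIM24, each for 4 h and for 24 h. IACS-9571 occupies the bromodomain of TRIM24, a module that reads acetylated histones. In dTRIM24 a bromodomain ligand is joined to one for VHL, through which a ubiquitin ligase recognises its substrates, so that TRIM24 protein is marked for destruction by the proteasome. The labels name 18 samples, 3 in each of 6 groups of the same cell line, give no dose, and do not say whether the 3 came from separate cultures. The table holds 1 mean per group in FPKM, a unit that scales fragments for transcript length and library size, so levels of different genes can be compared per length. Values per library were not analysed here. The values below therefore carry no replicate error and no test, and their read depth is unknown.

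The proteasome is the protease that destroys proteins tagged with ubiquitin. Its core particle is a barrel of alpha and beta rings with the active sites inside, on 3 of the beta subunits. A regulatory particle of ATPase and non-ATPase subunits caps the barrel, binds the ubiquitin chain, removes it and feeds the unfolded substrate into the core. In blood cells, and after interferon, inducible beta subunits can take the places of the constitutive catalytic ones and give the immunoproteasome, whose peptides are displayed on MHC class I. When proteasome activity is short, the transcription factor NFE2L1 is known to raise the genes of the subunits together. A degrader needs this machine to act.

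Across the whole table, column totals ran from 771830 to 1058350 FPKM, while the median of the 25 ERCC spike-ins with at least 5 FPKM in each group ran from 29.7 to 31.7 FPKM. Column totals thus differed while the spike-ins, added by cell number, stood nearly level. Whether the columns had also been scaled to the spike-ins before deposit was not examined here. The median of the 11053 kept genes was 12.2 FPKM with DMSO, 12.2 FPKM with IACS-9571 and 12.1 FPKM with dTRIM24 at 4 h, and 9.96, 9.87 and 12.4 FPKM in the same order at 24 h. Since the spike-ins were added by cell number, levels set against them are per cell counted. An error in that count and less RNA per cell cannot be told apart here, and neither was tested. Of 8 monocytic leukaemia markers 7 reached 1 FPKM, CD14 being the exception at 0.15 to 0.21 FPKM, and their summed level was 501 to 718 FPKM. Of 21 markers of T, B, erythroid, epithelial and stromal cells 5 did (NKG7, PAX5, KRT8, KRT18 and PECAM1). Their sum was 53.9 to 81.8 FPKM, 6 of the 21 (CD3E, CDH5 and all 4 erythroid markers) were in each group at the most frequent value of the column, and their part in the results was not tested.

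Proteasome genes were among the abundant mRNAs of these cells. The means over the 6 groups ran from 17.3 FPKM for PSME4 to 423 FPKM for PSMB1, with a median of 95.3 FPKM against 11.4 FPKM over all kept genes. Ranked by that mean among kept genes, the 46 members lay between percentile 61.3 and percentile 98.2, with a median percentile of 91.6. Their summed level was 6554, 6320 and 6172 FPKM with DMSO, IACS-9571 and dTRIM24 at 4 h and 5508, 5104 and 6313 FPKM at 24 h. Set against the sum of all rows other than spike-ins and small RNAs, these sums were nearly level: 0.839%, 0.831% and 0.839% at 4 h and 0.856%, 0.835% and 0.842% at 24 h. Single genes were steady too. The highest group mean of a member was 1.15 to 1.54 times its lowest, with a median of 1.3 times, against a median of 1.35 times over all kept genes. The highest group was DMSO at 4 h for 25 members, dTRIM24 at 4 h for 11, dTRIM24 at 24 h for 7 and IACS-9571 at 4 h for 3, against 25.8%, 23.8%, 34.5% and 15.2% of all kept genes. The lowest was IACS-9571 at 24 h for 42 members and DMSO at 24 h for 4, against 55.4% and 40.5% of all kept genes.

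**Figure D1:**
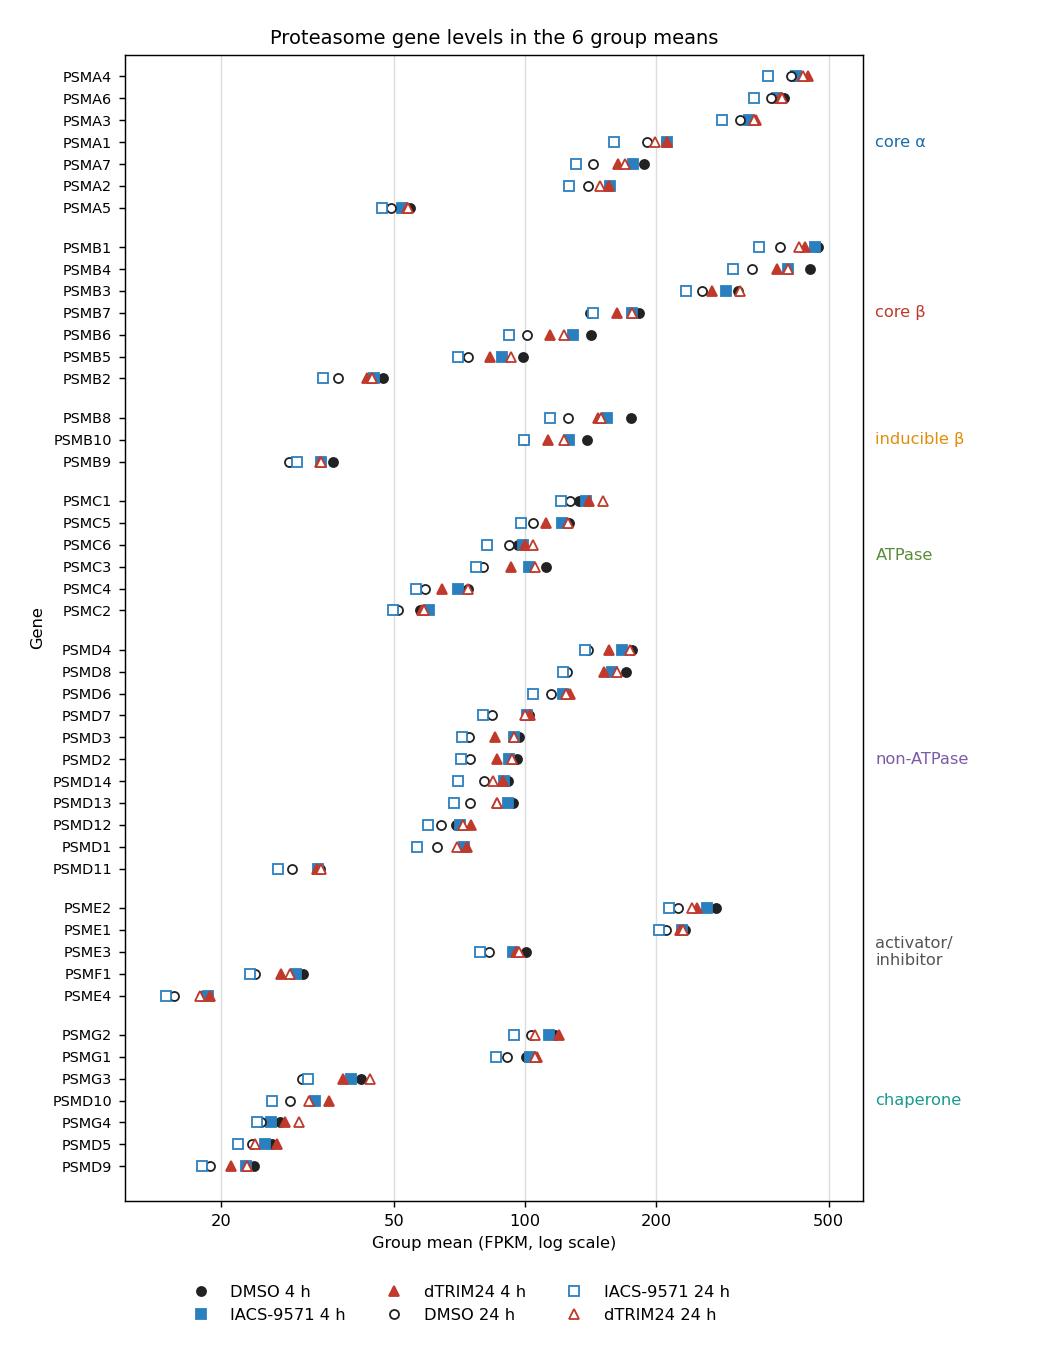
Group means in FPKM (horizontal log axis) of the 46 kept proteasome genes (vertical axis), ordered within 7 classes by the mean of the 6 groups. Filled marks are 4 h and open marks 24 h; circles are DMSO, squares IACS-9571 and triangles dTRIM24. Levels spread from 14.9 FPKM (PSME4) to 472 FPKM (PSMB1) between genes, while the 6 marks of a gene lie close together and the open squares are lowest in 42 of 46 rows.

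The 7 alpha subunits, which form the outer rings of the core and gate its entrance, were unequal in mRNA although a ring holds each of them once. Levels of a gene are given below in FPKM in the order DMSO, IACS-9571 and dTRIM24, first at 4 h and then at 24 h. PSMA4 had 416, 419.9 and 448 FPKM at 4 h and 409.9, 362 and 435 FPKM at 24 h. PSMA6 followed with a mean over the groups of 376 FPKM. PSMA3 had 326, 328 and 339.5 FPKM at 4 h and 312, 285 and 336 FPKM at 24 h. PSMA4 and PSMA3 were both highest with dTRIM24 at 4 h and lowest with IACS-9571 at 24 h. PSMA1 had 211, 212 and 212 FPKM at 4 h and 191, 161 and 199.5 FPKM at 24 h. PSMA7 had 188, 177 and 164 FPKM at 4 h and 143, 131 and 169.7 FPKM at 24 h. PSMA7, unlike PSMA4 and PSMA3, was highest with DMSO at 4 h. PSMA2 had a mean of 147 FPKM. PSMA5, the lowest, had 54.4, 52.2 and 53.5 FPKM at 4 h and 49.1, 46.9 and 53.8 FPKM at 24 h. PSMA4 thus stood several times above PSMA5 in each of the 6 groups, a gap far wider than any difference between groups. PSMA8, the alpha subunit of the testis, stood at the most frequent value of each column, common to 6066 rows and running from 0.0914 to 0.105 FPKM, and its level is therefore not known.

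The 7 beta subunits of the constitutive core were as unequal. PSMB1, a structural subunit, had 472, 466 and 439.7 FPKM at 4 h and 386, 346 and 426 FPKM at 24 h. PSMB4, another structural subunit, had 454, 403 and 379 FPKM at 4 h and 333, 302 and 403 FPKM at 24 h. In DMSO at 4 h both lay above PSMA4, whereas in DMSO at 24 h both lay below it. PSMB2 was lowest, with 47.1, 44.9 and 43.4 FPKM at 4 h and 37.04, 34.3 and 44.4 FPKM at 24 h. PSMB3, also structural, had 309, 289.8 and 269 FPKM at 4 h and 255, 235 and 312 FPKM at 24 h, and was highest with dTRIM24 at 24 h. The other 3 members of the class carry the active sites.

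The active sites sit on PSMB5 (chymotrypsin-like), PSMB6 (caspase-like) and PSMB7 (trypsin-like), and the inducible PSMB8, PSMB9 and PSMB10 replace them in that order. PSMB5 had 98.8, 88.5 and 83.1 FPKM at 4 h and 73.8, 69.97 and 92.9 FPKM at 24 h. PSMB8 had 176, 155 and 148 FPKM at 4 h and 126, 114 and 149 FPKM at 24 h. PSMB8 was thus above the subunit it replaces in each group, by a ratio of 1.78, 1.75 and 1.78 at 4 h and 1.70, 1.64 and 1.61 at 24 h in DMSO, IACS-9571 and dTRIM24. PSMB6 had 142, 129 and 114 FPKM at 4 h and 101, 91.9 and 123 FPKM at 24 h. PSMB9 had 36.2, 33.9 and 33.7 FPKM at 4 h and 28.6, 29.95 and 33.97 FPKM at 24 h. Here the inducible gene was well below its counterpart, by a ratio of 0.255, 0.263 and 0.296 at 4 h and 0.283, 0.326 and 0.277 at 24 h. PSMB7 had 183, 176 and 162 FPKM at 4 h and 141, 143 and 176 FPKM at 24 h. PSMB10 had 139, 126 and 113 FPKM at 4 h and 99.5, 99.7 and 123 FPKM at 24 h, and its ratio to PSMB7 was 0.757 in DMSO at 4 h and 0.695 to 0.717 in the other 5 groups. The order of the 3 ratios, with PSMB8 to PSMB5 highest and PSMB9 to PSMB6 lowest, was the same in all 6 groups. PSMB11, the beta subunit of the thymus, was at the most frequent value of each column throughout.

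**Figure D2:**
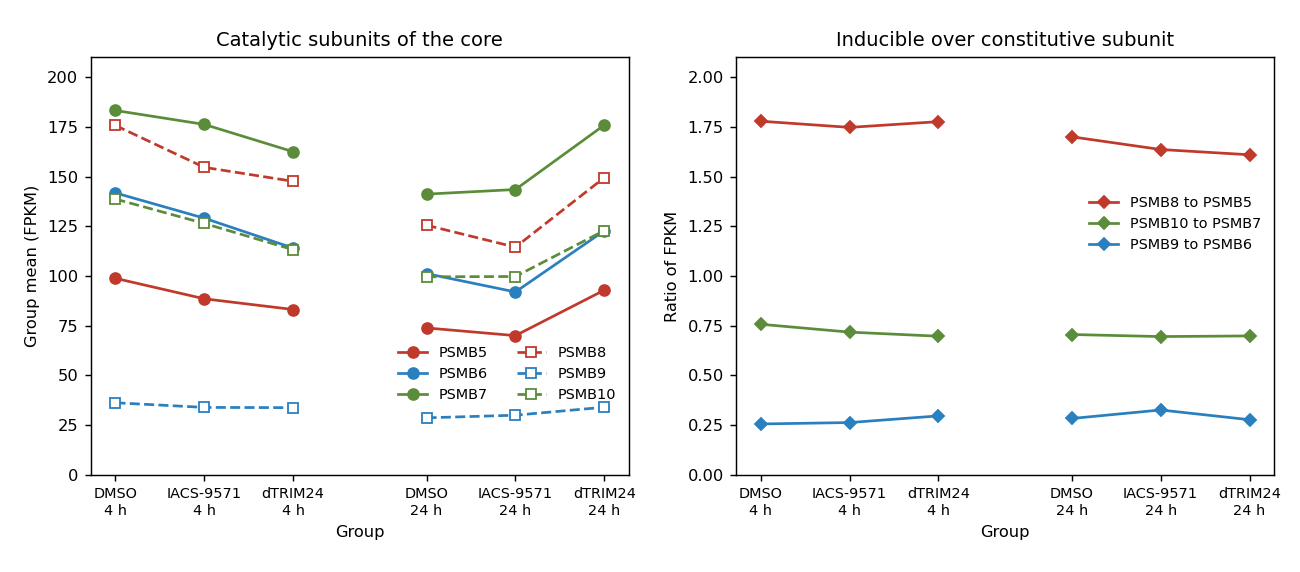
Left, group means in FPKM of the 3 constitutive catalytic subunits (filled circles, solid lines) and their inducible counterparts (open squares, dashed lines) in the 6 groups; right, the ratio of each inducible to its constitutive subunit. Lines only join the groups of one time. The levels move by up to 1.54 times while the ratios keep their order, from 1.61 to 1.78 for PSMB8 to PSMB5, 0.695 to 0.757 for PSMB10 to PSMB7 and 0.255 to 0.326 for PSMB9 to PSMB6.

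The stretches of 250 bases before the start of PSMB5 and of the 3 inducible genes are shown for the exchange of subunits described above, and PSMA4 is added as the member that differed least between DMSO at 24 h and 4 h. They are from RefSeq on GRCh38.p14, not the authors' build hg19, and were matched by symbol; 40 of the 46 members had an entry. The windows are chr14:23035221-23035470 (minus strand) for PSMB5, chr6:32844680-32844929 (minus strand) for PSMB8, chr6:32853942-32854191 (plus strand) for PSMB9, chr16:67936851-67937100 (minus strand) for PSMB10 and chr15:78540155-78540404 (plus strand) for PSMA4. PSMB8 and PSMB9 are neighbours in the MHC region. Sequences run 5′ to 3′ on the strand of the gene, and capitals mark matches, on either strand, to CCAAT (the box bound by NF-Y), TGACNNNGC (the core of the antioxidant response element, bound by NFE2L1 and NFE2L2) or GAAA, any 2 bases and GAAA again (the core of the interferon response element).
PSMB5: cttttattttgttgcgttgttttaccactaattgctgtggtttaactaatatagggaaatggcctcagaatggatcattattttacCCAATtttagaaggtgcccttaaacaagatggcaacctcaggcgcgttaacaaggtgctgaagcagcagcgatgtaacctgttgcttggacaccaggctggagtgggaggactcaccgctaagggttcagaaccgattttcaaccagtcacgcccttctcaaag
PSMB8: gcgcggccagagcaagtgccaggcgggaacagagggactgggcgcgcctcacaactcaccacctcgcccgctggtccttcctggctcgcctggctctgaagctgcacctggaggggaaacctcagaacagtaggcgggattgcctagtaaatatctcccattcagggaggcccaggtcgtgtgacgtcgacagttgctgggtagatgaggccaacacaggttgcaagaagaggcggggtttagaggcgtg
PSMB9: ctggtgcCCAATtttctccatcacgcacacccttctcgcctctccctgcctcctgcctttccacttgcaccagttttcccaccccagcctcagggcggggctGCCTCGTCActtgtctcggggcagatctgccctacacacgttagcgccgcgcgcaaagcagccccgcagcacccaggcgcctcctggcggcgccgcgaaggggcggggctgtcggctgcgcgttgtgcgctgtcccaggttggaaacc
PSMB10: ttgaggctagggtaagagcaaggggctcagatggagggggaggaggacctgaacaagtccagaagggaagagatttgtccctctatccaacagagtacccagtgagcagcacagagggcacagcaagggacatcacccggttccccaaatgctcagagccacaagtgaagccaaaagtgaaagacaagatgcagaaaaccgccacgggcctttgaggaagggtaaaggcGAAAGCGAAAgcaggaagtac
PSMA4: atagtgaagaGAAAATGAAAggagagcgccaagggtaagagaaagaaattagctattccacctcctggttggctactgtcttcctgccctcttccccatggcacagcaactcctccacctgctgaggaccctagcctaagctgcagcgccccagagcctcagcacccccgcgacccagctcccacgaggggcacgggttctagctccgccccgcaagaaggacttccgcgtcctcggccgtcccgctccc
PSMB5 held a CCAAT match, PSMB9 a CCAAT and an antioxidant response match, PSMB10 an interferon response match close to its start, PSMA4 one far from it, and PSMB8 none of the 3 patterns. GC content of the windows was 45.2% for PSMB5, 61.6% for PSMB8, 67.2% for PSMB9, 53.6% for PSMB10 and 60.8% for PSMA4.

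Over the 40 members with an entry, CCAAT was found in 17 (42.5%), against 35.8% of the 8137 windows of kept genes and 33% of all 27305 windows. The antioxidant response core was found in 11 (27.5%), against 12.4% of windows of kept genes and 11% of all. Those 11 were PSMB3, PSMB9, PSMD3, PSMD12, PSME1, PSME2, PSME4, PSMD5, PSMD9, PSMG1 and PSMG2. The interferon response core was found in 5 (PSMA4, PSMB4, PSMB10, PSME2 and PSMG4; 12.5%), against 2.43% of windows of kept genes and 3.07% of all. These are matches of letters, not shown binding sites.

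In the base of the regulatory particle, the 6 ATPases form the ring that unfolds substrates. PSMC1 was the highest of them, with 133, 138 and 140.2 FPKM at 4 h and 127, 121 and 151 FPKM at 24 h. PSMC2 was the lowest, with 57.2, 60.3 and 58.02 FPKM at 4 h and 50.9, 49.8 and 58.6 FPKM at 24 h. PSMC3, whose values spread most among the ATPases, had 112, 102 and 92.99 FPKM at 4 h and 80.2, 77.03 and 106 FPKM at 24 h. PSMC6 had 96.4, 99.1 and 99.8 FPKM at 4 h and 92.1, 81.6 and 104 FPKM at 24 h. PSMC4 had 73.9, 70.05 and 64.3 FPKM at 4 h and 58.7, 56.1 and 74.03 FPKM at 24 h. PSMC1, PSMC6 and PSMC4 were highest with dTRIM24 at 24 h, PSMC2 with IACS-9571 at 4 h and PSMC3 and PSMC5 with DMSO at 4 h, while the lowest group of all 6 was IACS-9571 at 24 h. PSMC5 had a mean of 115 FPKM. GENCODE lists 13 pseudogenes named after PSMC1, more than for any other member, and 32 in all for 12 members. How the authors' counting divided reads between such copies is not given in the sources used here, so PSMC1 and the other 11, above all PSMA6, PSMA2, PSMD10 and PSME2 with 2 to 4 copies each, are uncertain.

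The 11 non-ATPase subunits recognise and process the ubiquitin chain. PSMD4, a ubiquitin receptor, was the highest, with 176, 167 and 156 FPKM at 4 h and 139, 138 and 175 FPKM at 24 h. PSMD11, a subunit of the lid, was the lowest, with 33.8, 33.4 and 33.3 FPKM at 4 h and 29.1, 27.02 and 33.9 FPKM at 24 h. PSMD14, the enzyme that cuts the chain off the substrate, had 91.2, 89.5 and 88.8 FPKM at 4 h and 80.4, 70.1 and 84.4 FPKM at 24 h. The scaffold subunits PSMD1 and PSMD2 had means over the groups of 67.9 and 85.6 FPKM, and the lid subunits PSMD6, PSMD7 and PSMD13 had 119, 94.97 and 83.5 FPKM. Of the other lid subunits, PSMD8 had 171, 159 and 152 FPKM at 4 h and 125, 122 and 163 FPKM at 24 h. PSMD3 had 96.9, 94.4 and 85.4 FPKM at 4 h and 74.3, 71.8 and 94.3 FPKM at 24 h. PSMD12 had 69.4, 70.9 and 74.98 FPKM at 4 h and 64.00, 59.9 and 71.9 FPKM at 24 h. PSMD8 and PSMD3 were thus highest with DMSO at 4 h and PSMD12 with dTRIM24 at 4 h, and all 3 were lowest with IACS-9571 at 24 h.

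Alternative caps and the inhibitor spread widely. PSME2, which pairs with PSME1 in the interferon-induced PA28 cap, had 274, 263 and 249 FPKM at 4 h and 225, 214 and 242 FPKM at 24 h. PSME1 had 234, 229 and 227 FPKM at 4 h and 212, 204 and 232 FPKM at 24 h. The ratio of PSME1 to PSME2 was 0.853, 0.873 and 0.911 at 4 h and 0.939, 0.951 and 0.955 at 24 h, so it was below 1 in each group and higher at 24 h than at 4 h in each treatment. PSME3, the nuclear cap, had a mean of 91.3 FPKM, and PSMF1, an inhibitor in vitro, 27.3 FPKM. PSME4, the large single-chain cap, was the lowest of the 46, with 18.1, 18.7 and 18.9 FPKM at 4 h and 15.6, 14.9 and 17.9 FPKM at 24 h.

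Assembly chaperones, which build the particles and are absent from the finished machine, had the lowest median among the 7 classes, 31.3 FPKM against 198 FPKM for alpha and 164 FPKM for constitutive beta subunits. PSMG1 and PSMG2, the pair that assembles the alpha ring, had means of 98.6 and 109 FPKM, and their partners PSMG3 and PSMG4 had 37.6 and 26.8 FPKM. PSMG2 had 117, 114 and 120.1 FPKM at 4 h and 103, 94.3 and 105 FPKM at 24 h. PSMG3 had 41.9, 39.7 and 38.1 FPKM at 4 h and 30.6, 31.6 and 43.99 FPKM at 24 h. PSMG2 was highest with dTRIM24 at 4 h and PSMG3 with dTRIM24 at 24 h. PSMG4 had 27.3, 26.04 and 28.1 FPKM at 4 h and 24.7, 24.2 and 30.2 FPKM at 24 h, with its highest value also in dTRIM24 at 24 h. Among the chaperones of the ATPase ring, PSMD10 had 32.5, 32.9 and 35.5 FPKM at 4 h and 28.8, 26.1 and 31.8 FPKM at 24 h. PSMD5 had 26.2, 25.2 and 26.9 FPKM at 4 h and 23.5, 21.9 and 23.9 FPKM at 24 h. PSMD10 and PSMD5 were both highest with dTRIM24 at 4 h. PSMD9, the lowest of the class, had 23.8, 22.8 and 21.1 FPKM at 4 h and 18.9, 18.1 and 22.9 FPKM at 24 h.

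Differences between groups are given below on the scale of log2(FPKM + 1), where 0.585 is 1.5-fold and 0.263 is 1.2-fold. None of the 46 genes passed 1.5-fold in any of the 9 comparisons. Over the same scale, single spike-ins differed with an SD of 0.11 to 0.22 in a comparison, which gives the size of difference seen between RNAs added in fixed amounts. Both compounds were set against the same DMSO mean at each time, and the comparisons of a compound with DMSO therefore share it.

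With IACS-9571 at 4 h no member passed 1.5-fold, against 0.66% of all kept genes, or 1.2-fold, against 2.71% higher and 1.51% lower. The members had a median of -0.05 (from -0.18 to 0.07) beside 0.00 over all kept genes, and 35 of 46 lay below DMSO, where 49.9% of all genes did, and 11 above it, where 50.1% did. The size depends on the scaling: after rescaling each group to its spike-in median, the median of members was -0.15 with 46 of 46 below. After quantile normalization it was -0.02 with 28 below. The shares of all kept genes below in these settings are not given here. Compared singly, the 25 spike-ins had a median difference of only -0.01, a smaller shift than the rescaling applied. PSMB8 (-0.18), PSMB4 (-0.17) and PSMB5 (-0.16) stood lowest and PSMC2 (0.07), PSMC1 (0.05) and PSME4 (0.04) highest. All 7 constitutive beta genes (median -0.09) and all 3 inducible ones (median -0.13) were below DMSO, whereas of the 7 alpha genes 4 were above and 3 below (median 0.01).

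With dTRIM24 at 4 h, set against the same DMSO mean, the members spread more widely, from -0.31 to 0.12, as did all kept genes. The SD over members was 0.12, against 0.06 with IACS-9571 at 4 h. Over all kept genes it was 0.31 against 0.16. No member passed 1.5-fold, against 1.02% of kept genes, and 2 passed 1.2-fold lower, PSMB6 (-0.31) and PSMB10 (-0.29), where 7.3% of kept genes did. None passed it higher, against 2.99%. PSMC3 followed at -0.26, and PSMD10 (0.12), PSMD12 (0.11) and PSMA4 (0.11) stood highest. The median of members was -0.09 beside -0.01 over all genes, and 29 of 46 lay below DMSO (52.2% of all genes) and 17 above (47.8%). All 7 constitutive and 3 inducible beta genes were below DMSO, with medians of -0.20 and -0.25. The alpha genes had a median of 0.00, the ATPases of -0.08, the non-ATPases of -0.04 and the chaperones of 0.04, with 5 of the 7 chaperones above DMSO.

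Set directly against each other at 4 h, at matched time but with doses not given, the compounds differed little. No member was past 1.5-fold (0.751% of kept genes were), and none past 1.2-fold, against 1.24% higher and 2.23% lower. The members had a median of -0.03 beside -0.02 over all genes. Below IACS-9571 lay 29 of 46, against 57.5% of all genes, with all 10 beta genes among them, and above it 17, against 42.5%. After rescaling each group to its spike-in median, the median of members was 0.05 and 15 of 46 lay below, so the direction depends on the scaling. The share of all kept genes below in that setting is not given here. Among the catalytic genes, PSMB8 (0.02) and PSMB9 (0.07) were then above. Compared singly, the spike-ins had a median difference of only 0.02, a smaller shift than the rescaling applied. PSMB6 (-0.18), PSMB10 (-0.16) and PSMD3 (-0.14) stood lowest, and PSMD10 (0.11), PSMG4 (0.11) and PSMA4 (0.09) highest.

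After 24 h with IACS-9571 most members stood slightly below DMSO. Here 42 of 46 did (57.4% of all genes did) and 4 stood above (42.6%), with a median of -0.08 beside -0.02 over all genes. The SD of single spike-ins was 0.12, which does not measure the error of a median over members. The count was 25 of 46 after quantile normalization and thus depends on the scaling, with the share of all kept genes in that setting not given here. No gene was past 1.5-fold (0.452% of kept genes) or 1.2-fold (1.44% higher and 2.09% lower). PSMA1 (-0.25), PSMD14 (-0.19) and PSMA4 (-0.18) stood lowest. All 7 alpha genes (median -0.13), all 6 ATPases (-0.06), all 11 non-ATPases (-0.09) and all 5 cap and inhibitor genes (-0.06) were below DMSO. The 4 exceptions were PSMB9 (0.06), PSMG3 (0.04), PSMB7 (0.02) and PSMB10 (0.00), so the inducible class had a median of 0.00.

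After 24 h with dTRIM24 all 46 lay above DMSO, as did 96.8% of all kept genes, and none below it, where 3.23% did. The median of members was 0.23, beside 0.26 over all genes and -0.06 over the spike-ins, which puts the proteasome genes close to the table as a whole. With each group centred on the median of its genes, 35 of the 46 members lay below DMSO and the median of members was -0.06. The shift taken out exceeded the median difference of all kept genes, so most kept genes also lay below in that setting. Their share is not given here. Against the median difference of all kept genes, 29 members lay below and 17 above. No member was past 1.5-fold, against 4.99% of kept genes, and 16 were past 1.2-fold higher (48.2% of kept genes) and none lower (0.516%). PSMG3 (0.51), PSMC3 (0.39) and PSMD8 (0.38) stood highest, and PSMD5 (0.02), PSMG2 (0.03) and PSMA1 (0.06) lowest. By class the alpha genes were lowest, with a median of 0.09, and the constitutive beta genes highest, with 0.28. Between alpha and constitutive beta genes the order was thus the opposite of that with dTRIM24 at 4 h. The order of all 7 classes was not reversed, since at 4 h the inducible beta genes were lowest (-0.25) and the chaperones highest (0.04).

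Against IACS-9571 at 24 h, dTRIM24 also had all 46 members higher (98.4% of kept genes were, and 1.56% lower), with a median of 0.30 beside 0.28 over all genes. None passed 1.5-fold (3.21% of kept genes) and 33 passed 1.2-fold higher, 71.7% of members where the background was 53.7%, and none lower (0.127%). Below IACS-9571 lay 22 of 46 once the groups were centred on their medians, a setting for which the share of all kept genes is not given here. Compared with the median difference of all kept genes, 16 members lay below and 30 above. PSMG3 (0.46), PSMC3 (0.45) and PSMB4 (0.42) stood highest, and PSMD5 (0.12), PSMG2 (0.16) and PSMB9 (0.18) lowest. All 7 constitutive beta genes were past 1.2-fold, with a median of 0.40, and 3 of the 7 alpha genes, with a median of 0.24.

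**Figure D3:**
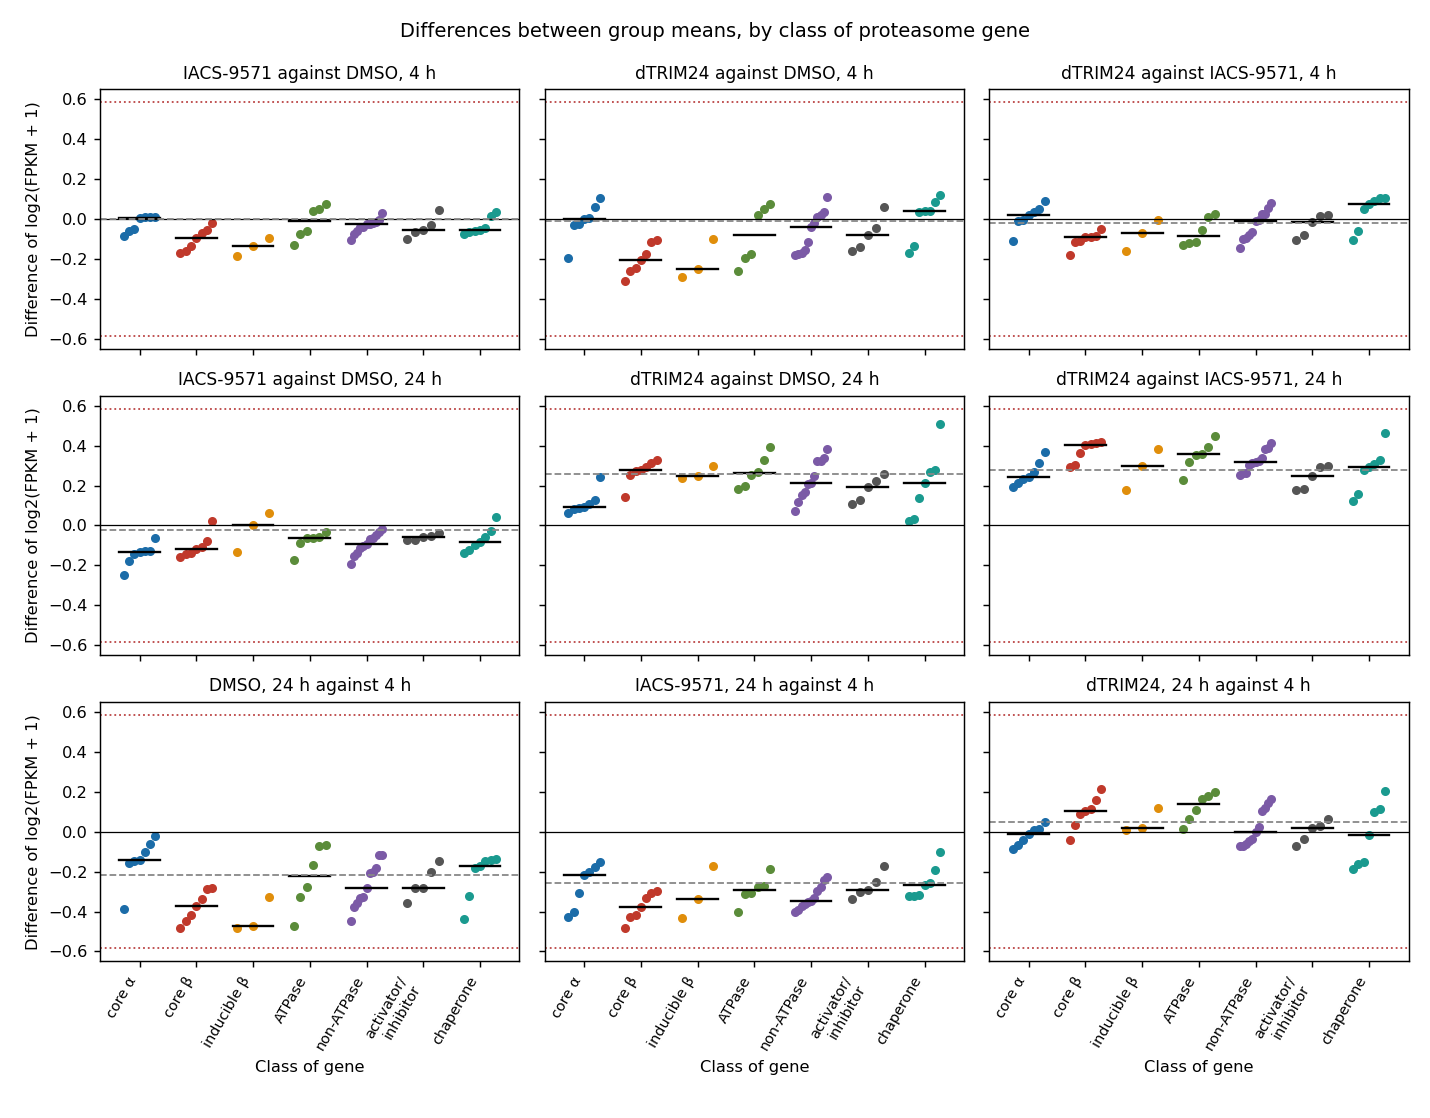
Differences of log2(FPKM + 1) between group means (vertical axis) for the 46 proteasome genes in 9 comparisons, 1 panel each; points are genes, ordered by value within 7 classes (horizontal axis), and black bars are class medians. The dashed line is the median of all 11053 kept genes and the dotted lines are 1.5-fold. No point reaches a dotted line, and the clouds follow the dashed line up (dTRIM24 at 24 h) or down (DMSO and IACS-9571, 24 h against 4 h).

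In DMSO all 46 were lower at 24 h than at 4 h, by a median of -0.28 beside -0.22 over all genes, of which 95% were lower and 5.05% higher. No member was past 1.5-fold (4.01% of kept genes) and 25 were past 1.2-fold lower, where 40.6% of kept genes were, with none higher (0.66%). PSMB6 (-0.48), PSMB8 (-0.48) and PSMB10 (-0.47) stood lowest and PSMA4 (-0.02), PSMA3 (-0.06) and PSMC6 (-0.07) highest. The 10 beta genes were all past 1.2-fold lower, against 1 alpha gene, PSMA7 (-0.39). Centring the groups on their medians left 25 of the 46 lower, with a median of -0.01, the share of all kept genes then lower not being given here. Against the median difference of all kept genes, 25 members lay below and 21 above.

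In IACS-9571 the 24 h values were likewise lower for all 46 (97% of all genes, and 3.04% higher), by a median of -0.31 beside -0.26. No member was past 1.5-fold (2.5% of kept genes), and 33 were past 1.2-fold lower, against 48.7%, with none higher (0.299%). PSMB6 (-0.48), PSMB8 (-0.43) and PSMA7 (-0.43) stood lowest, and PSMG4 (-0.10), PSMA5 (-0.15) and PSME1 (-0.17) highest. Centring the groups on their medians left 30 of 46 lower, the share of all kept genes then lower not being given here. Compared with the median difference of all kept genes, 33 members lay below and 13 above.

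In dTRIM24, by contrast, the values at 24 h were near those at 4 h, with a median of 0.02 beside 0.05 over all genes. No member passed 1.5-fold (1.18% of kept genes) or 1.2-fold, against 9.01% of kept genes higher and 2.48% lower. Below the 4 h value lay 17 of 46, against 38.6% of all genes, and above it 29, against 61.4%. With each group centred on its median 26 lay below, the share of all kept genes then below not being given here. Against the median difference of all kept genes, 26 members lay below and 20 above. PSMB3 (0.21), PSMG3 (0.20) and PSMC4 (0.20) stood highest and PSMG2 (-0.19), PSMD5 (-0.16) and PSMD10 (-0.15) lowest. All 6 ATPases were above their 4 h level, with a median of 0.14, and 6 of the 7 constitutive beta genes, with a median of 0.11.

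The differences ran with the GC content of the transcripts, among members as among all genes. Members ranged from 36.8% GC (PSMC6) to 60.1% (PSMB10), and the class medians were 42.1% for alpha, 51.8% for constitutive beta and 55.3% for inducible beta genes. Across the 46 members, which are not independent replicates and share the same means, Spearman's rho of difference and GC was -0.74 for dTRIM24 against DMSO at 4 h, -0.72 for DMSO at 24 h against 4 h and 0.65 for dTRIM24 against DMSO at 24 h. Over all kept genes with a GC value rho was -0.73, -0.72 and 0.61. With the trend on GC taken out, constitutive beta genes had a median of -0.18, alpha genes of -0.08 and chaperones of 0.03 for dTRIM24 at 4 h. For DMSO at 24 h against 4 h the constitutive beta genes then had a median of -0.14 and the alpha genes of 0.04, and for dTRIM24 at 24 h -0.01 and -0.08. In that scaling PSMB6 stayed lowest with dTRIM24 at 4 h (-0.24), and PSMG3 stood at 0.12 with dTRIM24 at 24 h. For the inducible genes the 3 medians without the trend were -0.16, -0.07 and -0.08. The part of GC content in the results was not tested.

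**Figure D4:**
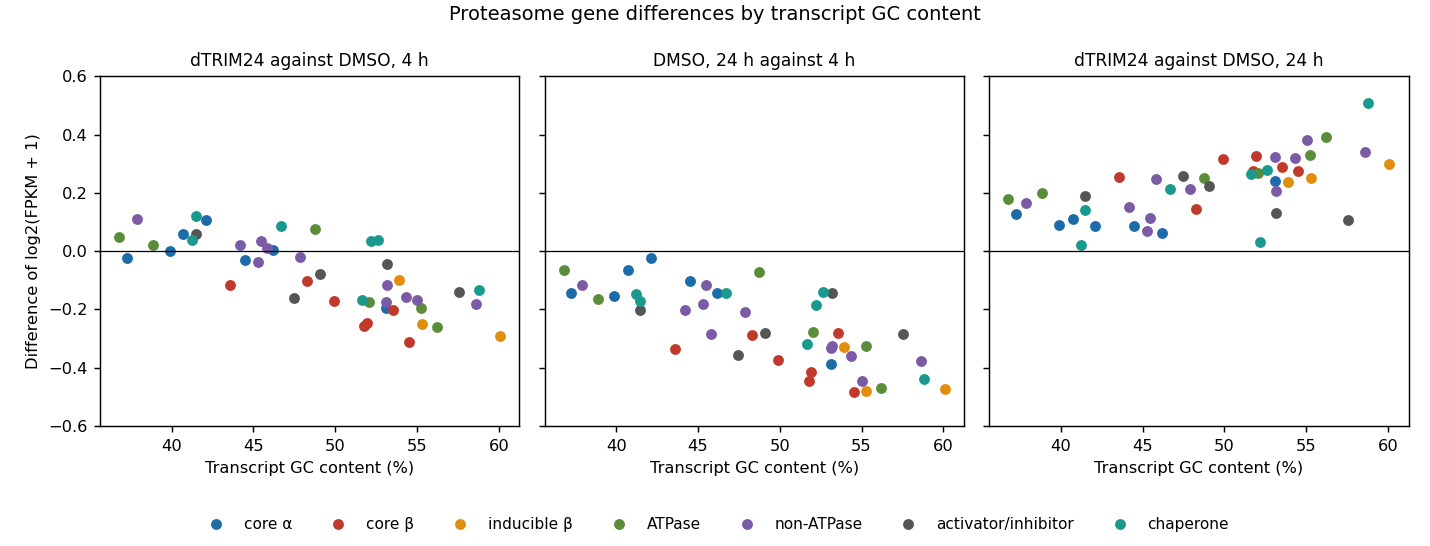
Difference of log2(FPKM + 1) between group means (vertical axis) against the GC content of the transcript in % (horizontal axis) for the 46 proteasome genes, coloured by class, in 3 comparisons. The points slope down for dTRIM24 against DMSO at 4 h (rho -0.74) and for DMSO at 24 h against 4 h (rho -0.72), and up for dTRIM24 against DMSO at 24 h (rho 0.65); alpha genes lie at low and inducible beta genes at high GC content.

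Partners of the proteasome that the name pattern does not match were measured beside the subunits. The 20 kept ones include chaperones, further subunits, deubiquitinases and shuttles. None of them reached 1.5-fold between treatments at either time, against 0.452% to 4.99% of all kept genes in these comparisons. The medians of the partners were 0.02 with IACS-9571 and -0.03 with dTRIM24 at 4 h, and -0.08 and 0.22 at 24 h, against DMSO. ADRM1, the other main ubiquitin receptor of the cap, had 78.9, 72.2 and 63.03 FPKM at 4 h and 51.2, 50.5 and 73.7 FPKM at 24 h. Its difference between 24 h and 4 h in DMSO was -0.61, past 1.5-fold, and it stood 0.52 above DMSO with dTRIM24 at 24 h. With the groups centred these values were -0.35 and 0.23, and with the GC trend removed -0.15 and 0.05, so the first was no longer past 1.5-fold. In DMSO over time 4.01% of all kept genes were past 1.5-fold as deposited. POMP, the chaperone that matures the core, had 205, 217 and 229 FPKM at 4 h and 201, 170.3 and 198 FPKM at 24 h. It was highest with dTRIM24 at 4 h and lowest with IACS-9571 at 24 h. SHFM1, a small subunit of the lid, had 333, 348 and 319 FPKM at 4 h and 293, 272 and 326 FPKM at 24 h.

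Regulators of the subunit genes were present at lower levels. NFE2L1 had 18.2, 19.3 and 17.1 FPKM at 4 h and 13.6, 13.8 and 20.4 FPKM at 24 h. Its relative NFE2L2 had 39.95, 40.9 and 41.98 FPKM at 4 h and 36.7, 36.1 and 41.1 FPKM at 24 h. DDI2, the protease that activates NFE2L1, had 7.16, 7.45 and 7.40 FPKM at 4 h and 5.71, 6.40 and 8.14 FPKM at 24 h. Of the 12 kept genes of this list, 1 passed 1.5-fold against DMSO, MAFK, a small partner of both factors, at 5.61 FPKM with dTRIM24 against 3.35 FPKM with DMSO at 24 h (0.60). In that comparison 4.99% of all kept genes passed it in either direction. MAFK stood at 0.31 with the groups centred and 0.15 with the GC trend removed, no longer past 1.5-fold. The medians were 0.04 and -0.02 at 4 h and -0.03 and 0.28 at 24 h for IACS-9571 and dTRIM24 against DMSO.

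Among 14 ubiquitin and ligase genes, UBB, a polyubiquitin gene, had 986, 914 and 841 FPKM at 4 h and 763, 699 and 907 FPKM at 24 h. VHL, the receptor that dTRIM24 recruits, had 8.75, 10.4 and 9.72 FPKM at 4 h and 6.94, 9.04 and 13.9 FPKM at 24 h. It was the 1 gene of this list past 1.5-fold against DMSO, with dTRIM24 at 24 h (0.91), and VHL stayed past it with the groups centred (0.62) and with the GC trend removed (0.67). As deposited, 4.99% of all kept genes were past 1.5-fold in that comparison. Over time in DMSO, TCEB2, a subunit of the VHL ligase, was past 1.5-fold lower (-0.59), but not with the groups centred (-0.32). Of all kept genes 4.01% were past 1.5-fold in either direction over that time. The medians of the list against DMSO were -0.02 with IACS-9571 and 0.00 with dTRIM24 at 4 h, and -0.07 and 0.18 at 24 h.

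The immunoproteasome works with the peptide loading genes of MHC class I, of which 13 were kept. TAP1, a peptide transporter subunit encoded beside PSMB9, had 16.2, 15.5 and 13.9 FPKM at 4 h and 12.7, 12.5 and 14.3 FPKM at 24 h. The medians of the list were -0.09 with IACS-9571 and -0.17 with dTRIM24 at 4 h, and -0.04 and 0.29 at 24 h, with none past 1.5-fold against DMSO. Of all kept genes 0.452% to 4.99% were past it in these comparisons. Over time in DMSO 1 gene was past 1.5-fold, where 4.01% of all kept genes were. It was HLA-B, an MHC class I heavy chain (-0.60), but not with the groups centred (-0.33) or with the GC trend removed (-0.21). The medians of the 3 inducible subunits were -0.13, -0.25, 0.00 and 0.25 in the same order.

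Of the 3 matched rows that are no part of the proteasome, PSMC3IP, a recombination factor named for its binding to PSMC3, had 6.004, 5.38 and 5.93 FPKM at 4 h and 5.18, 4.18 and 6.34 FPKM at 24 h. It passed 1.5-fold in none of the 9 comparisons, the largest difference being 0.50 for dTRIM24 against IACS-9571 at 24 h. The antisense RNAs PSMG3-AS1 and PSMD6-AS2 stayed under 1 FPKM, at 0.49 to 0.80 and 0.20 to 0.53 FPKM. The strand handling of the counting is not given in the sources used here, so their reads and those of PSMG3 and PSMD6 cannot be told apart.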

How the data were processed

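RNA of 18 samples in 6 groups was sequenced on an Illumina NextSeq instrument after mixing with ERCC spike-ins by cell number, per the labels' protocols. The authors deposited FPKM values as 1 mean per group, and TopHat2, Cuffnorm and hg19 are named per the submitters' processing notes. Which versions, annotation and strand setting were used is not given in the sources used here. Groups follow titles and time points, since the treatment protocol gives 24 h for each sample.

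Left out by name were 92 spike-in rows and 1706 small RNA rows. Genes reaching 1 FPKM in a group were kept, and differences of log2(FPKM + 1) between means were taken, with a bound of 1.5-fold and no test. Alternatives were bounds of 1.2-fold and 2-fold, a pseudocount of 0.1, keeping every row, keeping from 5 FPKM, centring on medians, quantile normalization, spike-in rescaling and removal of a cubic GC trend; ratios were also taken with a pseudocount of 1 and over sums. GC content came from the longest coding transcript of a symbol in GENCODE, for 92.7% of kept genes and all 46 members.

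Members and lists were chosen with earlier results of these data known. Named were the catalytic subunits, the highest and lowest member of each class and the 3 largest differences each way in each comparison. Genes of the pathway lists were named where they passed 1.5-fold or from those that differed most, and the markers MPO and NKG7, which passed it between times (MPO also between the compounds at 24 h), are not described further; SHFM1, NFE2L1, NFE2L2, DDI2, UBB and TAP1 were chosen after their values were seen. Classes were assigned by hand. The 1.5-fold call alone was checked on simulated data. The software was scipy 1.17.1, pandas 2.3.3 and numpy 2.4.6 under Python 3.11.15, with matplotlib 3.10.9 for plots.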

Additional observations from a re-analysis of the deposited data

How the results depend on the processing

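None of the proteasome genes passed 1.5-fold under a pseudocount of 0.1, with every row kept, with rows kept from 5 FPKM, or under median centring, quantile normalization, spike-in rescaling, removal of the GC trend or a 2-fold bound. A bound of 1.2-fold gave 2 genes lower for dTRIM24 against DMSO at 4 h, 16 higher for it at 24 h, 33 higher for dTRIM24 against IACS-9571 at 24 h, 25 lower for DMSO and 33 lower for IACS-9571 at 24 h against 4 h, and 0 elsewhere. Spike-in rescaling took the median for IACS-9571 against DMSO at 4 h from -0.05 to -0.15 and turned that for dTRIM24 against IACS-9571 at 4 h from -0.03 to 0.05, and centring turned that for dTRIM24 over time from 0.02 to -0.01. These moves were smaller than the SD of single spike-ins in each comparison, which does not measure the error of a median over members. Rescaling used the spike-in median of each group. Compared singly, the spike-ins had median differences of -0.01 for IACS-9571 against DMSO and 0.02 for dTRIM24 against IACS-9571 at 4 h. Both were smaller than the shifts that rescaling applied. With median centring, quantile normalization and the GC trend removed, in that order, the median was -0.0574, -0.0148 and -0.0244 for dTRIM24 against DMSO at 24 h (0.23 as deposited), turning its direction. It was 0.0037, -0.0117 and 0.0393 for dTRIM24 against IACS-9571 at 24 h (0.30), -0.0123, -0.0135 and -0.0399 for DMSO over time (-0.28), and -0.031, -0.0051 and -0.0451 for IACS-9571 over time (-0.31). Quantile normalization also turned that against IACS-9571. These settings remove a common shift by construction. The counts of members below the reference, alternatives chosen after seeing the data, became 35, 27 and 32 for dTRIM24 against DMSO at 24 h (0 as deposited, and 2 of 48 with no filter, PSMA8 and PSMB11 at the most frequent value of each column) and 22, 27 and 9 for dTRIM24 against IACS-9571 (0). With centring and quantile normalization they were 25 and 25 for DMSO over time and 30 and 23 for IACS-9571 over time (46 each). The count was 26 with centring for dTRIM24 over time (17), 25 with quantile normalization for IACS-9571 at 24 h (42), and 15 with spike-in rescaling for dTRIM24 against IACS-9571 at 4 h (29). The shares of all kept genes below the reference in these settings are not given here. The middle one of the 3 catalytic ratios was 0.697 with dTRIM24 at 4 h, and the ratio of sums there 0.819; in the other 5 groups the ratio of sums moved it by less than 0.22 on the log2 scale, the largest spike-in SD of the 9 comparisons. No paired analysis was possible because the table holds 1 mean per group, and for the same reason no replicate could be left out. Depth is unknown, so counting error could not be given.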
